A study of Mus musculus with 12 samples.

Results

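The proteasome genes of B16-OVA cells were followed as 1 set: the subunits of the 20S core and the 19S cap, their activators and inhibitor, and the dedicated assembly chaperones, with the immunoproteasome subunits among them. Members were chosen by gene symbol alone, not by any measured value, but with earlier results of these data known. The array annotation held 46 symbols that matched the numbered members chosen from the proteasome gene families Psma, Psmb, Psmc, Psmd, Psme, Psmf and Psmg. Of these, 45 had a probe set of their own, out of 18193 genes measured that way. Psma8 and Psmb11 also had a probe set of their own but fell outside the chosen numbers and were read with the proteasome partners. Psme2 was paired only with a probe set that it shares with another gene and was not analysed here. By role, the 45 genes were 7 subunits of the alpha ring, 4 structural beta subunits, 3 constitutive catalytic beta subunits, 4 interferon-induced genes, 6 ATPases and 11 other subunits of the 19S cap, 3 chaperones of the 19S base, 3 further activators or inhibitors, and 4 chaperones of the 20S core.

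B16-OVA is a mouse melanoma cell line that expresses the model antigen ovalbumin, and GDC-0623 (MEKi) is a small molecule inhibitor of the kinase MEK. Cells in monolayer culture received 100 nM GDC-0623 for 72 h, DMSO for 72 h, 100 nM GDC-0623 for 24 h or DMSO for 24 h, with 3 arrays in each of these 4 groups. All groups were the same line in culture, with no host animal. The 3 replicates of a group are described as biological, without a statement that each was a culture of its own, so a p-value here reflects the scatter among 3 samples and part of it may be technical. A signal is a log2 RMA value as deposited, a difference is a difference of group means on that scale, and its error is the moderated SE from limma. A gene was called when its limma p, two-sided and adjusted by Benjamini-Hochberg over all probe sets, was below 0.05.

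The proteasome degrades proteins that carry ubiquitin chains. The 19S cap binds and unfolds them with a ring of ATPases and feeds them into the 20S barrel, where the catalytic beta subunits Psmb5, Psmb6 and Psmb7 cut them into peptides. Under interferon gamma these are replaced by Psmb8, Psmb9 and Psmb10 in the immunoproteasome, and Psme1 and Psme2 form a cap that opens the barrel. Many of the peptides shown to CD8+ T cells on MHC class I come from this machinery, and the transcription factor Nfe2l1 is known to raise the subunit genes together when proteasome activity is short.

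Across the series, array medians lay between 5.36 and 5.42 at 72 h and between 5.31 and 5.34 at 24 h. The Dap spike-in was 1.35 to 1.51 higher at its 3′ than at its 5′ end on the 72 h arrays and 2.01 to 2.14 higher on the 24 h arrays, so times differed in a labelling measure that did not separate MEKi from DMSO within a time. The part of this in the comparisons between times was not tested. All 5 genes of the ERK output list were called lower with MEKi at 24 h (median −2.08), where 5.86% of all genes were. At 72 h 4 of 5 were called lower (median −1.29), where 5.14% of all genes were, and all 5 signs were negative. Single MEKi arrays stood apart in this list: at 24 h replicate 3 read 6.08 for Etv5, against 4.35 and 4.22 in the other MEKi arrays, and 10.58 for Dusp6, against 9.95 and 9.88, and at 72 h replicate 3 read 9.87 for Egr1, against 5.91 and 6.47. DMSO arrays read 8.86 to 8.99 for Etv5 and 11.49 to 11.57 for Dusp6 at 24 h, and 10.30 to 10.91 for Egr1 at 72 h. The part of these arrays in the proteasome values was not tested beyond leaving each out. The 8 melanocyte markers had mean signals of 12.20 to 14.30, whereas 8 of the 11 leukocyte markers lay below the median probe set, with Ptprc at 3.09. The summed linear signal of the leukocyte list was 380 to 392 with MEKi and 347 to 368 with DMSO at 72 h, and 333 to 355 with MEKi and 309 to 327 with DMSO at 24 h. Of that list, Cd68 was called higher with MEKi at 72 h and Lyz2 at 24 h, and the part of either in the proteasome values was not tested. With 3 arrays per group, the number of arrays limits the precision of every value.

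RefSeq promoter entries were found for 39 of the 46 symbols, and the 250 bases before the annotated start are printed for 6 of them. These are the constitutive catalytic subunits Psmb5 and Psmb6 and their induced counterparts Psmb8 and Psmb9, which are set side by side in the results, and the cap subunits Psmd11 and Psmd12, which were among the genes that moved furthest. The sequences are from build GRCm38.p6, read 5′ to 3′ on the strand of the gene. Capitals mark matches on either strand to the antioxidant response element core TGACNNNGC, the core of the interferon-stimulated response element, the gamma-activated site TTCNNNGAA or the ETS core CCGGAAG.
Psmb5 (chr14:54617996-54618245, minus strand): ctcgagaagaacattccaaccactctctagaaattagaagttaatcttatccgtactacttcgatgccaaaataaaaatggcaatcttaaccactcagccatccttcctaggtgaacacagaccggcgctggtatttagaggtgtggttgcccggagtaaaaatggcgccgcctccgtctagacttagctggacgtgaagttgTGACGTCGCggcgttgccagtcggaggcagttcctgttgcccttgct
Psmb6 (chr11:70525107-70525356, plus strand): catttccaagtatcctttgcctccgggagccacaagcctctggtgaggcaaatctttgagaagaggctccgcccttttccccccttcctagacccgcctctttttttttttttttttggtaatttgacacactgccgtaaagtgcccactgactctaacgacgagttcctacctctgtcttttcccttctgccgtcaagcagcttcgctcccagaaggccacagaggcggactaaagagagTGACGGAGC
Psmb8 (chr17:34197945-34198194, plus strand): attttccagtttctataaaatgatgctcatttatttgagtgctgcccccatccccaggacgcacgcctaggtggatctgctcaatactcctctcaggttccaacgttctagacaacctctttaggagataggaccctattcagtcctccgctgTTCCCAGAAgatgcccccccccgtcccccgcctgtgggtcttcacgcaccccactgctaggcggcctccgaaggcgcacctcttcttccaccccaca
Psmb9 (chr17:34187331-34187580, minus strand): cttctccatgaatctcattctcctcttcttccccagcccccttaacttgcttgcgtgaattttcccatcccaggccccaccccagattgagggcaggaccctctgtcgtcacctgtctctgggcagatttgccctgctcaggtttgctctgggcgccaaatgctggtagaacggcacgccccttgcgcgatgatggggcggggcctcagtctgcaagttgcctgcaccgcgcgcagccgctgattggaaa
Psmd11 (chr11:80428365-80428614, plus strand): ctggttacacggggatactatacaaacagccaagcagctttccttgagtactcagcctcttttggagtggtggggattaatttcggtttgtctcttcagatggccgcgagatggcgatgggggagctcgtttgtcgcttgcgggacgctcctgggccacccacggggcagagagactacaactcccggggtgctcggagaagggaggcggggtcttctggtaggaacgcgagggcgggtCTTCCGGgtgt
Psmd12 (chr11:107479278-107479527, plus strand): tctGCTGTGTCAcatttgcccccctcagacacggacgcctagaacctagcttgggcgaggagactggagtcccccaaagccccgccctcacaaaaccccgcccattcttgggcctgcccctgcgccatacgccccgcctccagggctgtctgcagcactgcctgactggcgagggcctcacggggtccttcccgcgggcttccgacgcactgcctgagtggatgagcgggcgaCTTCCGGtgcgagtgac

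Psmb5 and Psmb6 held the antioxidant response element core, which is also the core bound by Nfe2l1 with its small Maf partners, and Psmb8 held a gamma-activated site. Psmd11 held 1 ETS core and Psmd12 held 1 ETS core and 1 antioxidant core, and Psmb9 held none of the 4 motifs in this window. Over the 39 proteasome promoters, the ETS core was present in 12 (30.8%), against 7.83% of 27025 gene promoters of the same length. None of the 12 belonged to the 5 interferon-induced genes with an entry. The antioxidant core was present in 5 of the 39 (12.8%), against 11.5% of all promoters, the core of the interferon-stimulated response element in 3 (7.69%) against 3.46%, and the gamma-activated site in 2 (5.13%) against 8.13%. The CCAAT box, written CCAAT, was found in 13 (33.3%) against 37.5% of all promoters. Among the 23 promoters of genes called higher with MEKi at 72 h, 9 (39.1%) had the ETS core and 3 (13%) the antioxidant core, and among the 11 other promoters outside the interferon-induced genes 3 (27.3%) had the ETS core and 2 (18.2%) the antioxidant core. The shares over all promoters take in genes of any signal, and none was computed for genes as bright as the proteasome genes. Whether the ETS share is particular to proteasome promoters was therefore not tested. A match is a stretch of letters and not evidence that a factor was bound.

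The first comparison asked what MEK inhibition did to the proteasome genes by 72 h. Most of them rose: 28 of 45 were called higher, where 4.03% of all genes were called higher, and 1 was called lower, where 5.14% of all genes were called lower. The median difference over the 45 genes was 0.38, against 0.01 over all genes. In 36 of the 45 genes every MEKi array lay above every DMSO array, which was so for 14.7% of all genes. Among genes brighter than the median probe set, a group that holds 44 of the 45, 6.19% were called higher.

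The subunits that rose furthest were parts of the 19S cap. Psmd11, a scaffold subunit of the cap's lid, read 12.47, 12.56 and 12.46 in the MEKi arrays at 72 h, against 11.99, 12.02 and 11.80 in the DMSO arrays. The groups did not overlap, and the difference was 0.56 ± 0.09 (SE, n = 3 arrays per group), or 1.47-fold, with an adjusted p of 0.00603 in the limma fit. Psmd3, another lid subunit, read 11.33, 11.50 and 11.37 with MEKi, against 10.88, 10.94 and 10.69 with DMSO, a difference of 0.56 ± 0.09 (limma adjusted p = 0.00766). Psmd12, also of the lid, read 11.82, 11.92 and 11.74 with MEKi, against 11.37, 11.37 and 11.09 with DMSO, and differed by 0.55 ± 0.10 (limma adjusted p = 0.0111). In both genes the lowest MEKi array stood clear of the highest DMSO array, and the third DMSO replicate was the lowest of its group. Without MEKi replicate 2, Psmd12 (0.50) was no longer called.

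Psmd1 and Psmd2, the large scaffold subunits of the cap's base, were next. Psmd1 read 11.95, 12.15 and 11.97 with MEKi, against 11.53, 11.63 and 11.28 with DMSO (0.54 ± 0.11, limma adjusted p = 0.0153). Psmd2 read 12.66, 12.73 and 12.70 with MEKi, against 12.20, 12.27 and 12.06 with DMSO (0.52 ± 0.09, limma adjusted p = 0.00696). Psmb3, a structural subunit of the core, read 12.48, 12.58 and 12.51 with MEKi, against 12.03, 12.09 and 11.89 with DMSO (0.52 ± 0.09, limma adjusted p = 0.00707). As in the lid genes, the groups did not overlap, and without MEKi replicate 2 Psmd1 (0.48) was no longer called.

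The rise was spread over the core and the cap. In the alpha ring, which gates the barrel, 5 of 7 genes were called higher, and all 7 had every MEKi array above every DMSO array, with differences of 0.16 (Psma6, not called) to 0.52 (Psma4). All 4 structural beta subunits were called higher, between 0.32 (Psmb1, limma adjusted p = 0.0399, or 0.0504 in the fit with a replicate block) and 0.52. Of the ATPases that unfold the substrate, 5 of 6 were called, and all 6 differences lay between 0.40 and 0.47. Psmc4 was the exception, with 12.68, 12.52 and 12.20 with MEKi, against 12.10, 11.94 and 12.06 with DMSO, and its difference of 0.43 ± 0.12 had an adjusted p of 0.0622 in limma, or 0.0477 with the replicate number as a block. Of the non-ATPase subunits, 9 of 11 were called higher, among them Psmd4 (0.50), which binds ubiquitin chains, and Psmd14 (0.41), the deubiquitinase that removes them. Psmd7 (0.36) and Psmd13 (0.30) were not called, but Psmd7 was with the replicate block (limma adjusted p = 0.0441).

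**Figure D1:**
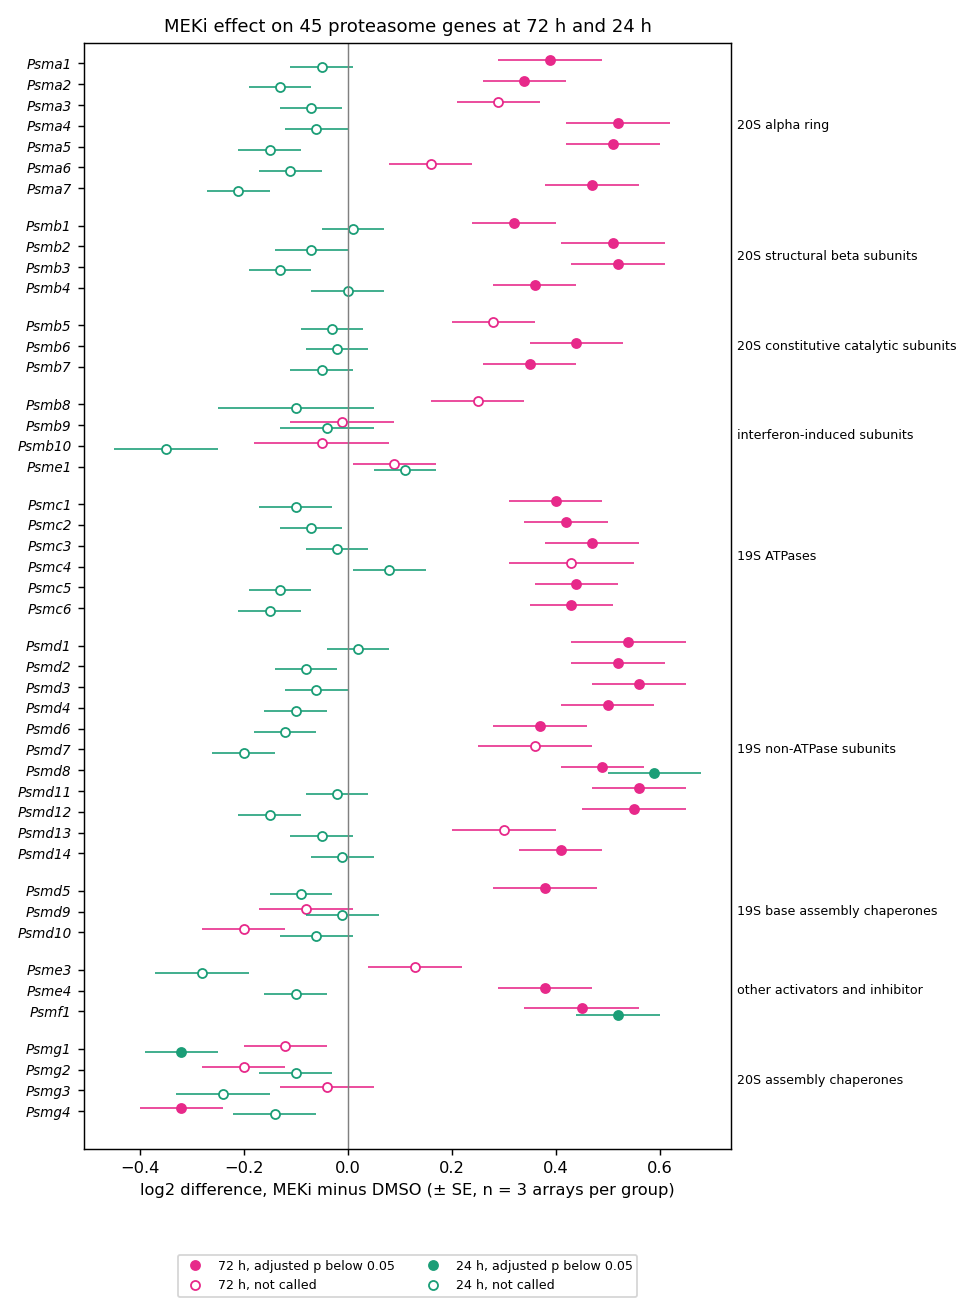
Log2 difference (MEKi minus DMSO, ± moderated SE, 3 arrays per group) of each of the 45 proteasome genes at 72 h and at 24 h, grouped by role, with filled points for an adjusted p below 0.05. At 72 h the subunits of the core and of the cap lie between 0.16 and 0.56, apart from the interferon-induced genes, while at 24 h most points lie near or below 0, apart from Psmd8 and Psmf1.

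The number of calls depended on single arrays more than the direction did. With 1 array left out of the 72 h fit, the 28 genes called higher became 14 without MEKi replicate 1, 6 without MEKi replicate 2 and 25 without MEKi replicate 3, and 13, 23 and 18 without DMSO replicate 1, 2 and 3. The median difference over the 41 genes that are not interferon-induced was 0.40 with all arrays, and 0.35 to 0.43 with 1 array left out. Beside the probe set each gene was read from, 21 of the 41 genes had 33 other probe sets brighter than the median probe set, of which 31 had a positive difference at 72 h and 17 were called higher. The 5 such probe sets of Psmd11 gave 0.18 to 0.73.

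The Psmg genes encode the chaperones that build the alpha ring. At 72 h 0 of 4 were called higher, where 4.03% of all genes were, and 3 of 4 had an adjusted p above 0.05. All 4 signs were negative. Psmg4 was called lower: it read 9.36, 9.32 and 9.42 with MEKi, against 9.71, 9.71 and 9.65 with DMSO, and differed by −0.32 ± 0.08 (limma adjusted p = 0.0363). Every MEKi array was below every DMSO array, but the call was lost without any 1 of the 6 arrays and with the replicate number as a block. Psmg2 differed by −0.20 ± 0.08 without overlap and was not called (limma adjusted p = 0.195), and Psmg1 and Psmg3 differed by −0.12 and −0.04.

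Of the chaperones that assemble the 19S base, Psmd5 was called higher (0.38 ± 0.10, limma adjusted p = 0.0424). It averaged 10.13 ± 0.11 with MEKi and 9.74 ± 0.12 with DMSO (SD, n = 3 each). Psmd10, which is also known as gankyrin, read 8.97, 9.01 and 8.94 with MEKi, against 9.18, 9.19 and 9.15 with DMSO, so its groups did not overlap in the other direction, with a difference of −0.20 ± 0.08 that was not called (limma adjusted p = 0.17). Psmd9 differed by −0.08 with overlapping groups.

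Of the remaining regulators, Psme4, an activator that caps the barrel without ATP, rose by 0.38 ± 0.09 at 72 h (limma adjusted p = 0.0264). Psmf1, an inhibitor of the 20S core in vitro, rose by 0.45 ± 0.11 (limma adjusted p = 0.0331), with 10.07, 10.10 and 9.89 in MEKi arrays, against 9.55, 9.75 and 9.41 in DMSO arrays. Psme3, the nuclear relative of Psme1, differed by 0.13 ± 0.09 and was not called.

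Of the interferon-induced genes, 0 of 4 were called at 72 h in either direction, where 4.03% of all genes were called higher and 5.14% lower. At an unadjusted p below 0.05 in limma the count was 1, against 4232 of 18193 over all genes. With so few genes, these counts do not set the interferon-induced genes apart from all genes. Psmb8, the induced counterpart of Psmb5, read 4.78, 4.65 and 4.90 with MEKi, against 4.58, 4.47 and 4.52 with DMSO. The groups did not overlap, but the difference of 0.25 ± 0.09 was not called (limma adjusted p = 0.139), and Psmb8 was the only member with a mean signal, 4.57, below the median probe set of 5.36, so it was measured near the low end of the scale. Psmb9, the counterpart of Psmb6, read 5.57, 5.83 and 5.75 with MEKi, against 5.59, 5.80 and 5.78 with DMSO. These overlap almost fully, and the difference was −0.01 with a 95% interval of −0.23 to 0.21.

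Psmb10, the counterpart of Psmb7, read 8.06, 8.01 and 7.93 with MEKi at 72 h, against 8.12, 8.30 and 7.73 with DMSO, a difference of −0.05 with a 95% interval of −0.35 to 0.25. Psme1, a subunit of the interferon-induced cap, read 10.40, 10.41 and 10.44 with MEKi, against 10.41, 10.33 and 10.23 with DMSO, a difference of 0.09 with a 95% interval of −0.09 to 0.28. Both pairs of groups overlapped. With 3 arrays per group, the intervals do not exclude rises of up to 0.25 in Psmb10 and 0.28 in Psme1.

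Of their constitutive counterparts, Psmb6 and Psmb7 were called higher. Psmb5, the chymotrypsin-like subunit, read 12.04, 12.11 and 12.05 with MEKi, against 11.82, 11.83 and 11.70 with DMSO, and its difference of 0.28 ± 0.08 was not called (limma adjusted p = 0.0664), although 5 alternatives that kept all arrays called it higher, with limma adjusted p between 0.00904 and 0.0484. Psmb6, the caspase-like subunit, read 12.39, 12.49 and 12.28 with MEKi, against 11.93, 12 and 11.90 with DMSO (0.44 ± 0.09, limma adjusted p = 0.014). Psmb7, the trypsin-like subunit, read 12.35, 12.43 and 12.23 with MEKi, against 12.04, 12.02 and 11.89 with DMSO (0.35 ± 0.09, limma adjusted p = 0.042). In none of the 3 did the groups overlap, but the Psmb6 call was lost without MEKi replicate 1 or 2 or DMSO replicate 1, and the Psmb7 call without any 1 array other than MEKi replicate 3 and with the arrays centred on their median (limma adjusted p = 0.0628).

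**Figure D2:**
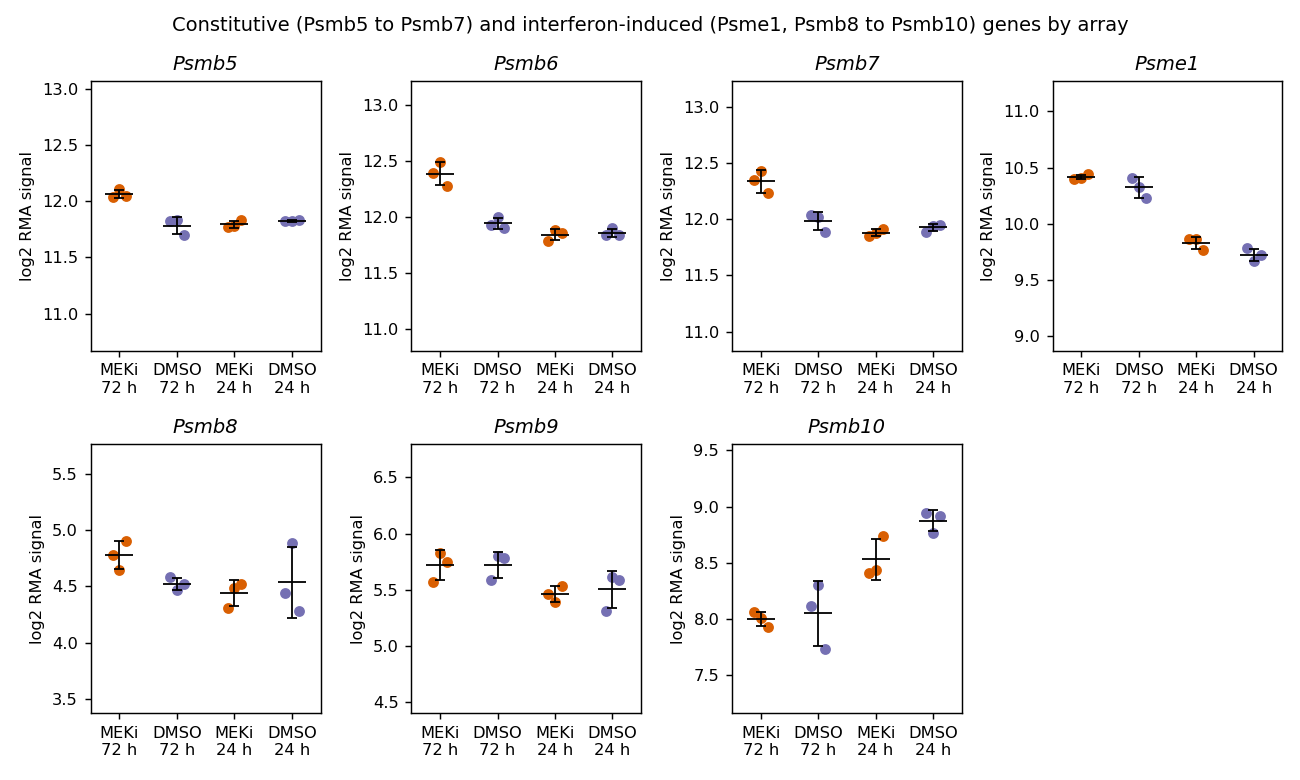
Log2 RMA signal of the constitutive catalytic subunits Psmb5, Psmb6 and Psmb7 and of the interferon-induced genes Psme1, Psmb8, Psmb9 and Psmb10, 1 point per array, with a bar for the group mean and its SD (n = 3); every panel spans the same height in log2 units. Psmb6 is highest in the MEKi arrays at 72 h (12.28 to 12.49), whereas Psmb10 and Psme1 separate 72 h from 24 h in both treatments.

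Set side by side within each array, the change of Psmb9 minus Psmb6 between MEKi and DMSO at 72 h was −0.45, that of Psmb10 minus Psmb7 was −0.40, and that of Psmb8 minus Psmb5 was −0.03. The mean of the 4 interferon-induced genes minus the mean of the other 41 changed by −0.26 at 72 h and by −0.03 at 24 h between MEKi and DMSO. The mean of the other 41 genes was 11.69, 11.77 and 11.66 in the MEKi arrays at 72 h, against 11.39, 11.44 and 11.29 in the DMSO arrays, and the mean of the 4 induced genes was 7.20, 7.22 and 7.25 with MEKi, against 7.17, 7.22 and 7.07 with DMSO. These are descriptions with no test, because the genes differ in spread, and signals of different probe sets are not levels that can be compared.

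At 24 h the picture was different. MEKi left 42 of the 45 genes uncalled: 2 were called higher, where 5.01% of all genes were called higher, and 1 was called lower, where 5.86% were. The median difference was −0.07, against 0.01 over all genes, and 38 of the 45 signs were negative. In 16 genes every MEKi array was below every DMSO array, where 18.3% of all genes were so, and in 2 genes every MEKi array was above, where 16.2% were. Of 11334 genes brighter than the median probe set, 3081 were below and 2396 above in this way. Among the 3 calls, Psmd8, a lid subunit, read 13.05, 13.16 and 12.84 with MEKi, against 12.40, 12.48 and 12.39 with DMSO (0.59 ± 0.09, limma adjusted p = 0.00778).

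The inhibitor Psmf1 read 10.33, 10.35 and 10.10 with MEKi at 24 h, against 9.78, 9.76 and 9.67 with DMSO (0.52 ± 0.08, limma adjusted p = 0.00943). Both Psmd8 and Psmf1 were also called higher at 72 h, and these 2 calls at 24 h remained without any 1 of the 6 arrays. The 3 other probe sets of Psmf1 gave 0.62 to 0.92, all called. Psmg1, a chaperone of the alpha ring, read 10.04, 10.04 and 10.19 with MEKi, against 10.35, 10.44 and 10.43 with DMSO, and fell by 0.32 on the log2 scale (SE 0.07, limma adjusted p = 0.028). Without any 1 of 5 of the 6 arrays (all but MEKi replicate 3) no gene was called lower at 24 h, and without MEKi replicate 3 the count was 3.

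Apart from Psmd8, no subunit of the core or the cap was called at 24 h. All 7 alpha ring genes had a negative difference, from −0.21 (Psma7, limma adjusted p = 0.0615) to −0.05, and 5 of the 7 did not overlap. The constitutive catalytic subunits differed by −0.05 to −0.02. Psmb10 read 8.41, 8.44 and 8.74 with MEKi, against 8.94, 8.77 and 8.92 with DMSO, without overlap, and its difference of −0.35 ± 0.10 was not called (limma adjusted p = 0.0699). It was called lower in 4 alternatives that kept all arrays: with brighter probe sets (limma adjusted p = 0.0319), the trended prior (0.0151), array weights (0.0178) and the mean of probe sets (0.0426). Without MEKi replicate 3 it was called at −0.45 (limma adjusted p = 0.0146). Psmb8 (−0.10), Psmb9 (−0.04) and Psme1 (0.11) overlapped between the groups.

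Whether the MEKi effect differed between the times was tested directly, as the MEKi minus DMSO difference at 72 h minus that at 24 h, over all 12 arrays. In 25 of the 45 genes this difference of effects was called higher, where 1.97% of all genes were, and 0 were called lower by limma (2.1% of all genes were). At an unadjusted p below 0.05 in limma the count was 33 of the 45, and all 33 differences were positive. Over all genes 3400 of 18193 passed, in either direction. The median was 0.44 over the proteasome genes and 0.00 over all genes. The largest were Psmd12 with 0.70 ± 0.12 (limma adjusted p = 0.00702), Psma7 with 0.69 ± 0.10 (limma adjusted p = 0.00406) and Psma5 with 0.66 ± 0.10 (limma adjusted p = 0.00469).

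Psmb3 (0.65), Psmd3 (0.62) and Psmd4 (0.60) followed. By role, the difference of effects was called for 6 of 7 alpha ring genes, 2 of 4 structural beta subunits, 1 of 3 constitutive catalytic subunits (Psmb6, 0.46), 5 of 6 ATPases, 9 of 11 non-ATPase subunits, and for Psmd5 and Psme4. It was not called for any of the 4 chaperones of the core or the 4 interferon-induced genes, whose values were 0.35 for Psmb8, 0.30 for Psmb10, 0.04 for Psmb9 and −0.01 for Psme1. Psmd8 and Psmf1, which were already higher at 24 h, had differences of −0.11 and −0.07. The Psmb6 call was lost without any 1 of 7 of the 12 arrays, its value then lying between 0.41 and 0.48. With the replicate number as a block, Psmb7 (0.40) was called (limma adjusted p = 0.0439, against 0.0517 unpaired), as it was in 4 other alternatives that kept all arrays, and Psma3 (0.36) was not (0.0615, against 0.0499 unpaired). Psmb5 (0.31) was called in 4 alternatives that kept all arrays. The count of 25 became 11, 15 and 22 without MEKi replicate 1, 2 and 3 of 24 h, 16, 13 and 16 without DMSO replicate 1, 2 and 3 of 24 h, 20, 12 and 25 without MEKi replicate 1, 2 and 3 of 72 h, and 18, 25 and 19 without DMSO replicate 1, 2 and 3 of 72 h.

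**Figure D3:**
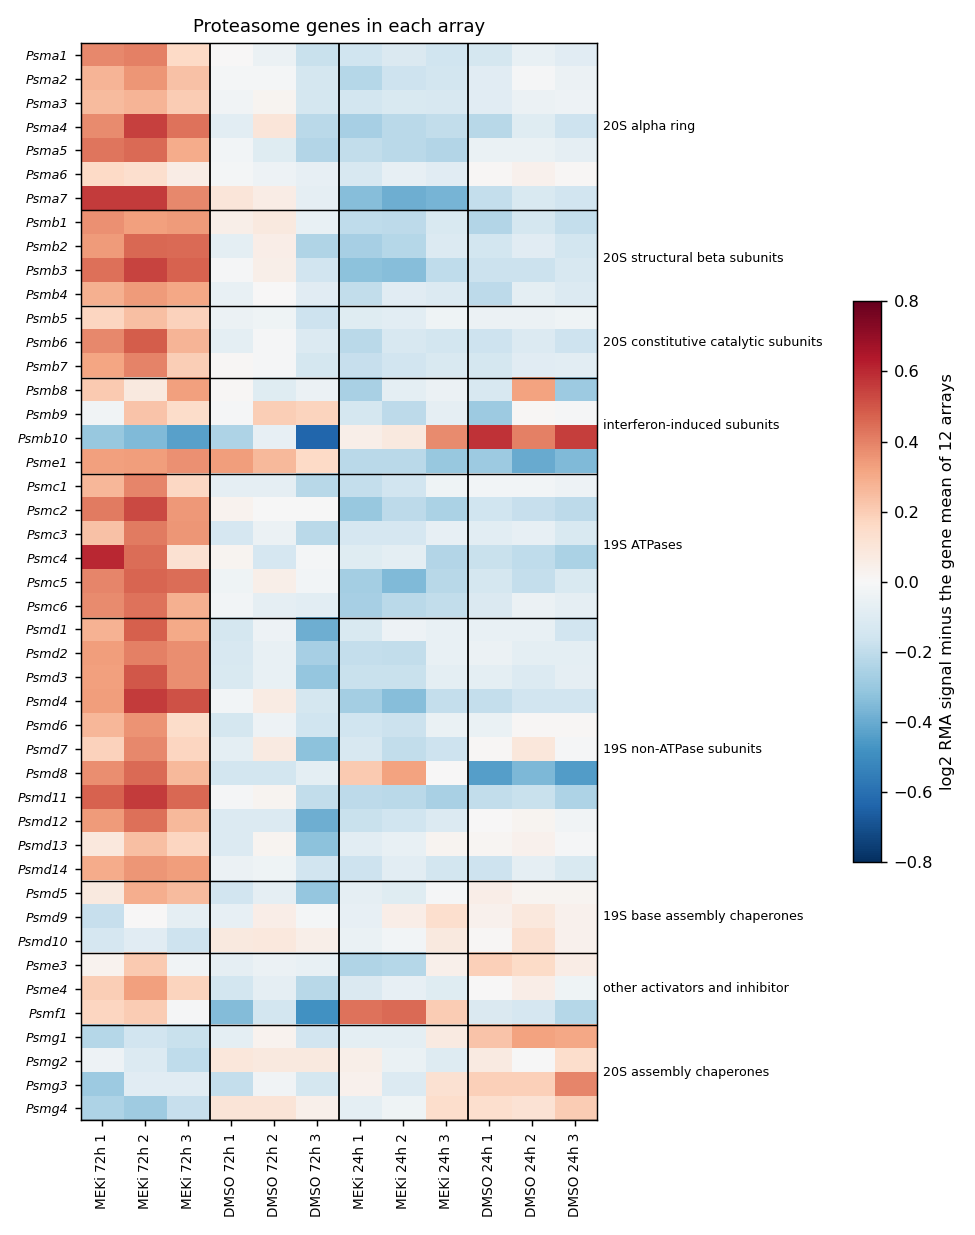
Log2 RMA signal of each proteasome gene in each of the 12 arrays, minus the mean of that gene over the 12 arrays, with genes grouped by role and arrays by group. The 3 MEKi arrays at 72 h are above the gene mean across the core and the cap, while Psmb10 and the Psmg chaperones are not.

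The arrays of each treatment were then compared between times. With DMSO the proteasome genes stayed near their 24 h signals: 2 of 45 were called higher at 72 h, where 14.2% of all genes were, and 3 lower, where 16.9% were, with a median of −0.01. With MEKi, 32 of 45 were called higher at 72 h than at 24 h, where 13.5% of all genes were, and 1 lower, where 16% were, with a median of 0.44 against 0.04 over all genes. Every 72 h array lay above every 24 h array in 35 of 45 genes with MEKi and 8 of 45 with DMSO (24.4% and 24.5% of all genes), and below in 4 with MEKi and 10 with DMSO (23.3% and 23.9% of all genes). The 2 comparisons share no array, and each of them carries the labelling difference between times given above.

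The largest changes with MEKi were in Psma7, an alpha ring subunit, which read 12.44, 12.44 and 12.27 at 72 h, against 11.54, 11.49 and 11.51 at 24 h (0.87 ± 0.08, limma adjusted p = 6.9e-05). With DMSO the same gene read 11.98, 11.94 and 11.81 at 72 h, against 11.69, 11.76 and 11.73 at 24 h, a difference of 0.18 that was not called. Psmb3 (0.77), Psmd4 (0.74), Psmd11 (0.73), Psmc5 (0.72) and Psmc2 (0.69) followed with MEKi, and with DMSO these 5 lay between 0.12 and 0.19 and were not called. All 6 ATPases, all 4 structural beta subunits and all 3 constitutive catalytic subunits were called higher over time with MEKi, and none of these 13 with DMSO. The Psmb5 call was lost without MEKi replicate 1 or 2 of 24 h or MEKi replicate 2 of 72 h and with centred arrays (0.20, limma adjusted p = 0.0681).

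**Figure D4:**
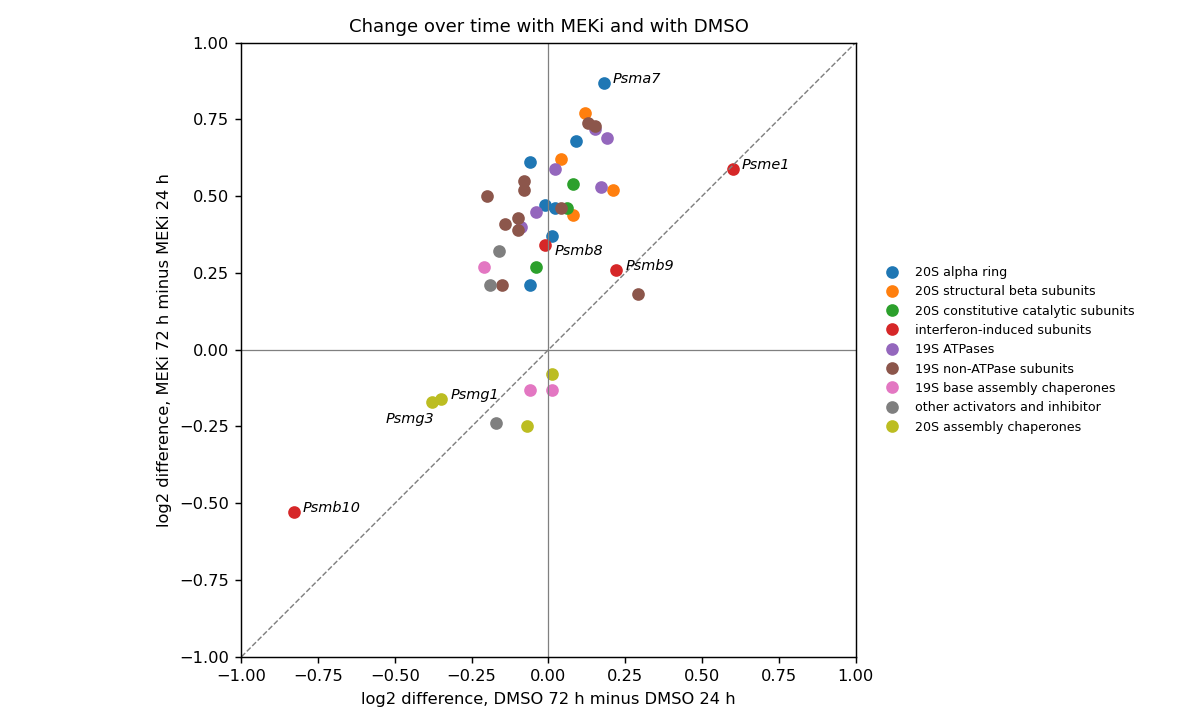
Log2 difference of 72 h minus 24 h with MEKi (vertical axis) against the same with DMSO (horizontal axis) for the 45 proteasome genes, coloured by role; the dashed line marks equal change. Most subunits of the core and the cap lie above the line near 0 on the horizontal axis, whereas Psme1 and Psmb9 lie on or near it.

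Of the interferon-induced genes, Psme1 and Psmb10 changed with time in both treatments. Psme1 read 10.40 to 10.44 at 72 h and 9.77 to 9.86 at 24 h with MEKi (0.59 ± 0.07, limma adjusted p = 0.000343), and 10.23 to 10.41 at 72 h and 9.67 to 9.78 at 24 h with DMSO (0.60 ± 0.08, limma adjusted p = 0.000777). Psmb10 fell in both, with −0.53 ± 0.10 under MEKi (limma adjusted p = 0.00384) and −0.83 ± 0.14 under DMSO (limma adjusted p = 0.00254). Psmb9 differed by 0.26 ± 0.09 with MEKi (limma adjusted p = 0.0599) and 0.22 ± 0.10 with DMSO (limma adjusted p = 0.156), neither called, although with MEKi 3 alternatives that kept all arrays called it higher (limma adjusted p between 0.0307 and 0.044). Psmb8 was called higher over time with MEKi (0.34 ± 0.09, limma adjusted p = 0.0252) and read −0.01 with DMSO, but the difference between these was the uncalled 0.35 given above, and the call with MEKi was lost without replicate 1 of 24 h or replicate 1 or 3 of 72 h. With all arrays kept it was lost in the fit on 12 arrays (limma adjusted p = 0.0661), with centred arrays (0.0667), with quantile normalization (0.0742) and with the mean of probe sets (a difference of 0.15, adjusted p = 0.2).

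With DMSO, Psmd8 was the other gene called higher over time (0.29 ± 0.07, limma adjusted p = 0.0154), and its call was lost without DMSO replicate 1 or 3 of 24 h, while without DMSO replicate 3 of 72 h Psma7 and Psmb1 were called too, making 4. The chaperones Psmg3 and Psmg1 were called lower over time with DMSO (−0.38 ± 0.09 and −0.35 ± 0.08, with limma adjusted p = 0.0117 and 0.00959). With MEKi they differed by −0.17 and −0.16 and were not called. Without MEKi replicate 3 of 24 h, the 1 gene called lower over time with MEKi became 2. Psmf1 and Psme3 are cases in which probe sets of 1 gene disagreed: their brightest probe sets were not called over time in either treatment, whereas the 3 other Psmf1 probe sets gave −1.10 to −0.57 with MEKi and −0.66 to −0.46 with DMSO, and a second Psme3 probe set gave −0.55 with MEKi and −0.85 with DMSO, all called.

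A list of genes outside the 46 symbols that belong to or work with the proteasome did not rise as a group at 72 h. Of its 15 measured genes, 0 were called higher and 0 lower, where 4.03% and 5.14% of all genes were. The median was 0.06, with 9 positive and 6 negative differences. At an unadjusted p below 0.05 in limma the count was 5 of the 15, in either direction, against 4232 of 18193 over all genes. The list holds the subunits Sem1, Psma8 and Psmb11, and the mean signals of Psma8 (4.07) and Psmb11 (3.82) lay below the median probe set of 5.36. Pomp, which matures the 20S core, differed by 0.13 ± 0.09 and was not called. At 24 h, 3 of the 15 were called lower, namely Uchl5 (−0.38) and Usp14 (−0.31), both deubiquitinases that bind the cap, and Txnl1 (−0.27), a thioredoxin-like protein of the cap. Zfand5, a zinc finger protein that activates the proteasome, was called higher (0.27).

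Usp14 read 10.73, 10.63 and 10.64 with MEKi at 24 h, against 10.95, 10.98 and 10.99 with DMSO. At 72 h it read 11.20, 11.28 and 10.93 with MEKi, against 10.87, 10.92 and 10.49 with DMSO, a difference of 0.38 ± 0.13 that was not called. The groups did not overlap at either time, in opposite directions, but at 72 h the lowest MEKi array (10.93) was barely above the highest DMSO array (10.92). The difference of effects was 0.68 ± 0.16 (limma adjusted p = 0.0328).

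Among 8 measured regulators of the proteasome genes and ubiquitin supply, Vcp, the ATPase that extracts Nfe2l1 from the endoplasmic reticulum, was called higher with MEKi at 72 h: 13.29, 13.35 and 13.30 with MEKi, against 12.98, 13.04 and 12.85 with DMSO (0.36 ± 0.08, limma adjusted p = 0.0322). Maff, a small Maf partner of Nfe2l1, was called lower at 24 h (−1.61 ± 0.13, limma adjusted p = 0.00151) and at 72 h (−0.71 ± 0.19, limma adjusted p = 0.0499). Nfe2l1 itself differed by 0.18 ± 0.11 at 72 h and by 0.01 ± 0.06 at 24 h between MEKi and DMSO, neither called. Its mRNA rose over time by 0.92 ± 0.10 with MEKi (limma adjusted p = 0.000147) and by 0.75 ± 0.09 with DMSO (limma adjusted p = 0.000466).

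In the list of MHC class I peptide supply and loading, 4 of 16 measured genes were called higher with MEKi at 72 h and 0 lower, with a median of 0.13. Of all genes, 4.03% were called higher and 5.14% lower. Tapbp, or tapasin, which loads peptides onto MHC class I, read 10.01, 9.90 and 9.81 with MEKi, against 8.87, 8.70 and 8.57 with DMSO (1.19 ± 0.10, limma adjusted p = 0.000577). The class I heavy chains H2-K1 and H2-D1 rose by 0.46 each, and their light chain B2m by 0.32. The probe sets of H2-K1 and H2-D1 are of a type open to cross-hybridisation, so their values may not separate these genes. The peptide transporter gene Tap1, a neighbour of Psmb9 in the MHC, differed by −0.12 ± 0.08 and was not called. At 24 h, 4 of the 16 were already called higher and 1 lower (5.01% and 5.86% of all genes), with a median of 0.14. Tapbp then averaged 8.17 with MEKi and 7.31 with DMSO. The difference of effects was called for 0 of the 16 in either direction. With DMSO over time, 6 were called higher and 3 lower (14.2% and 16.9% of all genes).

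Of 26 measured genes of the interferon response, 6 were called higher with MEKi at 72 h and 0 lower, with a median of 0.19. Of all genes, 4.03% were called higher and 5.14% lower. Rsad2, an antiviral protein, read 10.75, 10.80 and 10.66 with MEKi, against 9.63, 9.58 and 9.31 with DMSO (1.23 ± 0.10, limma adjusted p = 0.000577), and Ifit3 (1.03), Ifit1 (0.96) and Ifi35 (0.70) followed. Irf1, the interferon-gamma-induced factor that is known to drive Psmb9, differed by 0.06 ± 0.14 at 72 h and by −0.18 ± 0.07 at 24 h and was not called at either time. At 24 h, 4 of the 26 were called higher and 2 lower (5.01% and 5.86% of all genes), with a median of 0.06. Rsad2 then averaged 9.04 with MEKi and 7.99 with DMSO. The difference of effects was called higher for 4 and lower for 0 (1.97% and 2.1% of all genes). With DMSO over time, 13 were called higher and 2 lower (14.2% and 16.9% of all genes).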

How the data were processed

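RNA from 12 samples was hybridised to Affymetrix mouse genome expression arrays, 3 per group. The authors normalized the arrays by RMA, which corrects background, equalises distributions and summarises probes, and the deposited values are log2 RMA signals (2.21 to 14.47), used as given. Of 45037 probe sets that were not controls (64 were), the annotation paired 34945 with 1 gene, 932 with several and 9160 with none, and a gene was read from its own brightest probe set (27 of the 45 proteasome genes on a plain probe set, 14 on one shared by transcripts, 4 on one open to cross-hybridisation). The last affects the separation of related genes.

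Each comparison was a limma fit (version 3.58.1, R 4.3.3) of its 6 arrays without covariates, as the study's methods describe for 2 groups, and the difference of effects a contrast over 12 arrays. P-values were adjusted over all 45037 probe sets. The scripts were tested on simulated data. Members, lists and tests were chosen with earlier results of these data known. The catalytic and interferon-induced genes were named throughout, with up to 6 highest and 6 lowest called members per comparison and up to 4 called genes per companion list, and other named genes were chosen after their values were seen. Replicate numbers were taken to pair MEKi and DMSO arrays within a time: over the brighter probe sets, deviations of same-numbered arrays correlated at 0.214 to 0.307 at 72 h and 0.207 to 0.283 at 24 h, those of different numbers at −0.175 to −0.069 and −0.288 to 0.002. Over all probe sets same-numbered arrays correlated at 0.130 to 0.189 at 72 h but at 0.073 to 0.151 at 24 h, so the pairing at 24 h rests on the brighter probe sets. Alternatives were the fit on all arrays, a replicate block, brighter probe sets only, centred arrays, quantile normalization, a trended robust prior, array weights, the mean over the probe sets of a gene, and 1 array left out in turn.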

Additional observations from a re-analysis of the deposited data

Results flagged for a closer look

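In the genes below, the MEKi effect at 72 h differed from that at 24 h by the test of the difference itself (limma over 12 arrays, adjusted p below 0.05). All values are log2 differences, 72 h minus 24 h. In the alpha ring they were 0.44 for Psma1, 0.48 for Psma2, 0.36 for Psma3, 0.58 for Psma4, 0.66 for Psma5 and 0.69 for Psma7, and among the beta subunits 0.58 for Psmb2, 0.65 for Psmb3 and 0.46 for Psmb6. The ATPases gave 0.49 for Psmc1, Psmc2 and Psmc3, and 0.57 for Psmc5 and Psmc6. In the rest of the cap they were 0.53 for Psmd1, 0.60 for Psmd2, 0.62 for Psmd3, 0.60 for Psmd4, 0.49 for Psmd6, 0.55 for Psmd7, 0.58 for Psmd11, 0.70 for Psmd12 and 0.42 for Psmd14. The base chaperone Psmd5 gave 0.47 and the activator Psme4 gave 0.48. Outside the subunit families, the cap-bound deubiquitinase Usp14 gave 0.68 and the small Maf gene Mafk, a partner of Nfe2l1, gave 0.60.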

How the results depend on the processing

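The median difference of the 41 genes that are not interferon-induced kept its sign in every alternative in the 72 h comparison (0.35 to 0.43) and in the 24 h comparison (−0.10 to −0.05), and the count of genes higher with MEKi at 72 h was 23 to 33 in the alternatives that kept all arrays. With 1 array left out, that count was 6 to 25 and the count of lower genes 0. In the other comparisons, leaving out 1 array gave 2 higher and 0 to 3 lower (MEKi at 24 h), 11 to 25 higher and 0 lower (difference of effects), 1 to 4 higher and 3 lower (DMSO over time), and 29 to 32 higher and 1 to 2 lower (MEKi over time).

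With the replicate number as a block, pairing the arrays, 29 genes were higher with MEKi at 72 h (27 shared with the unpaired fit, Psmb1 lost, Psmc4 and Psmd7 gained) and 0 lower. In the difference of effects the block lost Psma3 and gained Psmb7, with MEKi over time it lost Psmd5 (0.27, limma adjusted p = 0.0528), and it changed no other call of a proteasome gene. Between times the numbers were not taken to pair arrays. Over all probe sets, deviations of same-numbered MEKi arrays of 24 h and 72 h correlated at −0.017 to 0.107, and those of different numbers at −0.143 to 0.100. Whether pairing has a part in the lost Psmd5 call was not tested. Quantile normalization also gave 0 lower at 72 h. At 24 h, the 1 gene called lower became 6 with brighter probe sets, 2 with centred arrays, 11 with the trended prior, 4 with array weights and 3 with the mean of probe sets. With DMSO over time, the 2 called higher became 4 in the fit on all arrays, 5 with brighter probe sets, 7 with the trended prior, 5 with array weights and 4 with the mean of probe sets, and the 3 called lower became 5, with brighter probe sets, centred arrays or the mean of probe sets, and 6 with the trended prior. With MEKi over time, the 1 called lower became 2 in the fit on all arrays or with brighter probe sets, 3 with centred arrays or the trended prior, and 4 with the mean of probe sets. The causes were not tested.

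Among the genes recomputed under each alternative (the catalytic and interferon-induced genes and the leading called genes), signs turned only where a gene was not called. With 1 array left out, at 24 h Psmb6 ranged from −0.035 to 0.010, Psmb8 from −0.225 to 0.080 and Psmb9 from −0.140 to 0.010, and at 72 h Psmb9 ranged from −0.073 to 0.067 and Psmb10 from −0.210 to 0.075. With DMSO over time Psmb5 ranged from −0.063 to 0.002 and Psmb8 from −0.142 to 0.163, and in the difference of effects Psmb9 ranged from −0.030 to 0.133 and Psme1 from −0.060 to 0.030. With all arrays, Psmb9 became 0.041 at 72 h with array weights, and with DMSO over time Psmb7 became −0.007 with centred arrays and Psmb8 0.026 with array weights and 0.072 with the mean of probe sets. Leaving Psmb8 out of the induced mean, an alternative chosen after seeing the data, made the change at 72 h relative to the other genes −0.32. Signals near the low end of the scale, as of Psmb8 and Psmb9, limit what can be read from these genes.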
